A study of Homo sapiens with 4 samples.

Results

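The DEAD box (DDX) and DEAH box (DHX) helicase genes were taken by their symbols, as DDX or DHX followed by a number and, for DDX, at most 1 further letter. By this rule 43 of the 10147 genes in the table are members, of which 29 are DDX genes and 14 are DHX genes. RNA synthesis was measured by TT-seq, in which cells are given 4-thiouridine (4sU) briefly, here 500 µM for 5 min, and the labelled, newly made RNA is isolated and sequenced. All cells, controls included, were K562 cells, a human chronic myelogenous leukemia line, that were genome edited to carry an N-terminal dTAG on IWS1, a protein that binds the elongation complex of RNA polymerase II. The dIWS1 group received 500 nM dTAG7, the ligand that leads to degradation of the tagged protein, and the control group received the solvent DMSO, both for 1 h, with 2 libraries labelled for each group. The labels name biological duplicates but do not say whether the cells come from 1 or several edited clones.

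DEAD and DEAH box proteins use the energy of ATP to open short RNA duplexes or to strip proteins from RNA, and most steps in the life of an RNA need at least one of them. They take their names from a conserved motif of the ATPase core, written in the amino acid code as D-E-A-D or D-E-A-H. DEAD box proteins usually act locally on a duplex without moving along it, whereas DEAH box proteins generally pull on a single strand and move along it. In splicing, the DEAH box ATPases drive remodelling of the spliceosome, and in the nucleolus members of both families guide the folding and cutting of ribosomal RNA. Other members export, translate, silence or degrade mRNA, and a few sense foreign RNA.

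The motif that names the families was looked up in the reference to check the symbols against sequence, and a few examples of transcripts that hold it are shown. The 30 coding bases around the motif are given 5′ to 3′ from GRCh38 with GENCODE release 44, and the capitals mark the 4 codons for D-E-A-D or D-E-A-H, whose position is given.
DDX46 (chr5:134790511-134790522, plus strand, exon 13): gttgttttaGATGAAGCAGACagaatgttt
DDX23 (chr12:48833424-48833435, minus strand, exon 13): gtggttctgGATGAGGCAGATaggatgatt
DDX47 (chr12:12822042-12822053, plus strand, exon 5): ttggtcatgGATGAAGCCGACcgaatactg
DDX19B (chr16:70329408-70329419, plus strand, exon 8): tttgttctgGATGAGGCTGATgtcatgata
DDX19A (chr16:70366201-70366212, plus strand, exon 8): tttgttctgGATGAGGCTGATgtcatgata
DHX15 (chr4:24556323-24556334, minus strand, exon 4): ataattcttGATGAGGCTCATgagaggaca
DHX38 (chr16:72104075-72104086, plus strand, exon 14): atcatcatgGACGAGGCCCACgagcgctcc
DHX37 (chr12:124971368-124971379, minus strand, exon 8): gtgatcatcGACGAGGCCCACgagaggagc
DDX11 (chr12:31091806-31091817, plus strand, exon 10): gtgatcatcGACGAGGCGCACaacctgatc

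A reference transcript was found for 42 members, 28 DDX and 14 DHX. Of the 28 DDX transcripts, 24 held in-frame codons for D-E-A-D, 1 (*DDX11*, a DNA helicase) held codons for D-E-A-H, and 3 held neither. Of the 14 DHX transcripts, 8 held codons for D-E-A-H and 5 held neither. The remaining one, *DHX29*, held codons for D-E-A-D only at codon 1119 of 1369, and whether this is the motif of its ATPase core was not determined. *DDX39A*, *DDX58*, *DDX60L*, *DHX9*, *DHX32*, *DHX34*, *DHX36* and *DHX57* are the genes with neither motif. The symbol therefore does not always stand for the letters in its name. *DDX19A* and *DDX19B*, neighbouring genes on chromosome 16, have the same 30 bases at this place.

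The deposited table gives a mean of normalized counts per gene over the library columns, and whole reads per column were recovered from this mean for 10135 genes, all 43 members among them. Recovery gave 1 control column, which entered the mean with the weight of 2 equal columns and was counted as 1 sample, and 2 different dIWS1 columns, here numbered 1 and 2 since the table ties neither to a replicate. The columns hold between 20599922 and 29697189 reads in genes. Log2 fold changes are dIWS1 over control from limma voom on these reads, scaled by the authors' spike-in size factors, and a gene is called when its p, adjusted over all 10135 genes by the Benjamini-Hochberg procedure, is under 0.05. The spread of the lone control is taken to be that of the dIWS1 columns. Of the erythroid marker genes looked up for K562, 11 of 12 are listed, with *GFI1B* the one not listed, and control levels of 18.3 (*EPOR*) to 518 (*NFE2*) normalized counts per kb. Of 8 markers of other blood cells only *LYZ* is listed, at 10.2 normalized counts per kb.

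Synthesis of 28 of the 43 members fell after depletion of IWS1, no member rose, and 15 were not called. The share called lower was 65.1%, beside 64.5% of all genes tested, so the helicase genes fell about as often as other genes. No member was higher even at an unadjusted p under 0.05, and 0.109% of all genes were called higher. All 43 members were below the control in both dIWS1 columns, as were 92.1% of all genes. The median log2 fold change of the members was −0.39 (quartiles −0.51 and −0.28), beside −0.43 (quartiles −0.60 and −0.26) for all genes. In bulk samples, fewer cells and less RNA per cell cannot be told apart.

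The shares called and the median changes of the DDX and DHX genes were close. Of the 29 DDX genes 19 were called lower (65.5%), and of the 14 DHX genes 9 (64.3%). The median log2 fold change was −0.36 (quartiles −0.52 and −0.30) for DDX and −0.39 (quartiles −0.43 and −0.28) for DHX. The difference of the medians, DHX minus DDX, was −0.02. In the single columns it had the opposite sign and was also small, at 0.0042 in column 1 and 0.039 in column 2. Since the median of a family moved by more than this between the columns, from −0.44 to −0.35 for DDX and from −0.44 to −0.31 for DHX, no order of the families can be read from it. Summed over genes, where members with the most reads, long genes among them, weigh most, the log2 ratio was −0.44 for DDX and −0.33 for DHX, a difference of 0.11 in the other direction. *DDX10* with 27614 and *DHX9* with 30459 control reads are the members with the most reads in these sums.

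**Figure D1:**
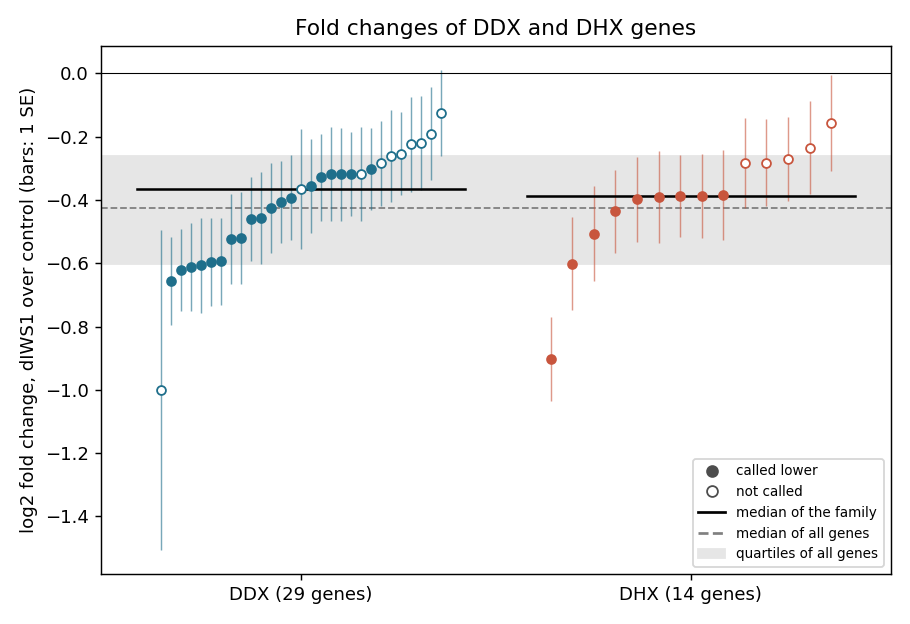
Log2 fold change (dIWS1 over control) of each DDX and DHX gene, with bars of 1 SE, filled where called lower and open where not called; the black lines are family medians, the dashed line and grey band the median and quartiles of all genes. The family medians of −0.36 and −0.39 lie inside the grey band. Of the members below the band, *DHX34* at −0.90 and *DDX53* at −1.0 lie farthest from it.

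Relative to the median gene, whose fall of 0.43 on the log2 scale was taken out before testing, 1 member was called, and 4.78% and 3.01% of all genes were called lower and higher. This was *DHX34*, a helicase of nonsense-mediated mRNA decay, the pathway that removes mRNAs with premature stop codons. It had 1168 reads in the control, 556 in dIWS1 column 1 and 629 in column 2. Both dIWS1 columns therefore held far fewer reads than the control, with log2 ratios of −1.05 and −0.76 after scaling. Its log2 fold change was −0.90 ± 0.13 (SE; limma adjusted p = 7.7e-10), so that its synthesis fell by 46.5%. Relative to the median gene the change was −0.48 (limma adjusted p = 0.010). The recentred test kept the SE from before recentring, which holds the difference between the dIWS1 columns common to all genes. *DHX34* lies on the plus strand of chromosome 19, from 47349315 to 47382704 in RefSeq on GRCh38.p14, and has 17 exons.

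The members differed among themselves more in level than in change. In control normalized counts per kb of gene, which allows genes to be compared, the median member stood at 63.4, beside 40.7 for all genes. The highest was *DHX9*, a nuclear helicase with many RNA partners, at 620, above 99.4% of genes. *DHX15* followed at 316, and *DDX17*, a splicing coregulator, at 315. The lowest were *DDX53*, a gene mainly expressed in testis and tumors, at 3.55, and *DDX58*, which encodes the viral RNA sensor RIG-I, at 5.94. DDX genes had a median level of 73.5 and DHX genes of 45.1. Across the 43 members, Spearman's rho of the log2 fold change with this level was 0.23, and all points share the same 3 columns.

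**Figure D2:**
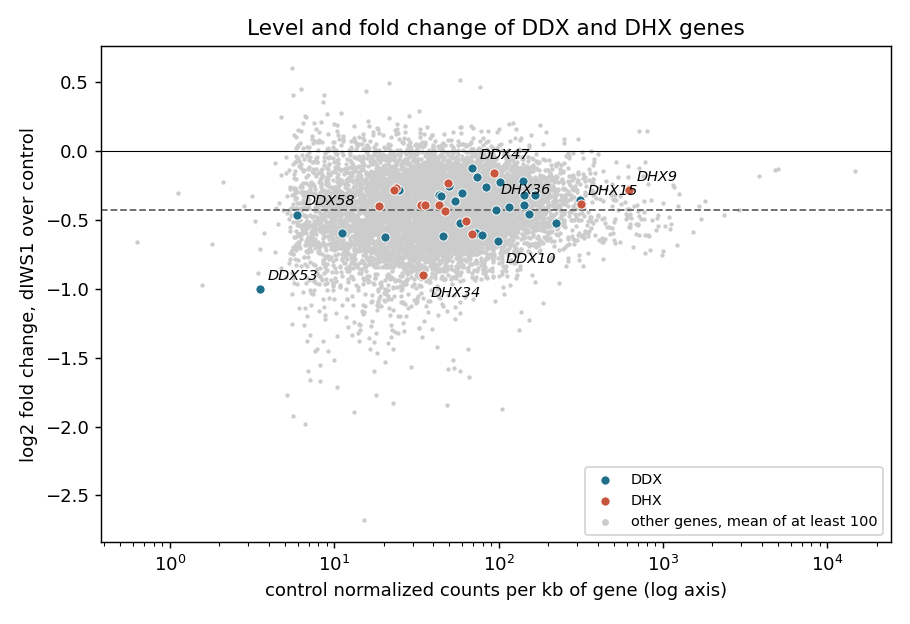
Control level in normalized counts per kb of gene (log axis) against log2 fold change (dIWS1 over control) for DDX genes, DHX genes and, in grey, other genes with a mean normalized count of 100 or more; the dashed line is the median of all genes at −0.43. The members spread from 3.55 (*DDX53*) to 620 (*DHX9*) normalized counts per kb, and all lie below 0 on the vertical axis.

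Of 12 members with a role in pre-mRNA splicing, 11 were called lower, beside 64.5% of all genes. Their median log2 fold change was −0.40, a smaller fall than the −0.43 of all genes, and 0 of the 12 were called relative to the median gene. Whether the role differs from other genes was not tested. The 5 DHX members of this role were all called. *DHX16*, the human Prp2, which activates the spliceosome, had 865 reads in the control and 626 and 625 in the dIWS1 columns, and its log2 fold change was −0.39 ± 0.13 (SE). *DHX38*, the human Prp16, which acts at the second catalytic step, had 906, 659 and 610 reads and a log2 fold change of −0.44 ± 0.13. For both genes the dIWS1 columns lay close together and well below the control. *DHX8*, the human Prp22, which releases the spliced mRNA, had 2201 reads in the control, 1443 in column 1 and 1744 in column 2. Its log2 ratios of −0.59 and −0.20 were the farthest apart among the DHX genes, so its fold change of −0.39 ± 0.14 rests on unlike columns, and the call was lost with the control column entered as 2 libraries (limma adjusted p = 0.077). *DHX15*, the human Prp43, which takes the spent spliceosome apart, had 18239, 12964 and 13521 reads and a log2 fold change of −0.38 ± 0.14. *DHX35*, a component of the late spliceosome, had 4955, 3131 and 3478 reads and the largest fall of the 5, −0.51 ± 0.15.

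Among the 7 DDX members of splicing, 6 were called lower. *DDX23*, the human Prp28, which frees the 5′ splice site from U1, had 1642 reads in the control and 1013 and 1041 in the dIWS1 columns, a log2 fold change of −0.60 ± 0.14 (SE). *DDX39A*, a paralog of *DDX39B* that is known from both splicing and mRNA export and was listed under splicing, had 2379, 1512 and 1626 reads and a fold change of −0.52 ± 0.15. *DDX46*, the human Prp5, had 11197, 7486 and 7968 reads and a fold change of −0.46 ± 0.15. In all 3 genes the column 1 ratio was the lower of the pair. *DDX17* had 7263, 5562 and 5183 reads, with nearly equal ratios of −0.36 and −0.35. *DDX41* had 629, 455 and 443 reads and was called lower at −0.41 ± 0.13. *DDX20*, a component of the SMN complex that assembles snRNPs, had the smallest fall of those called (−0.30 ± 0.13). *DDX42*, a partner of SF3B1, was at −0.32 ± 0.15 and just missed the call (limma adjusted p = 0.051), with ratios of −0.48 and −0.16. *DDX5* and *DDX39B* were not analysed here.

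Of 12 members with a role in ribosome biogenesis, 9 were called lower (75%, beside 64.5% of all genes). Their median log2 fold change was −0.39, beside −0.43 for all genes, and the values ran from −0.66 to −0.12. *DDX10*, a nucleolar helicase for the small ribosomal subunit and the longest member at 276 kb (chromosome 11, plus strand, 108665069 to 108940927), had 27614 reads in the control and 16449 and 16747 in the dIWS1 columns. Its log2 fold change was −0.66 ± 0.14 (SE; limma adjusted p = 2.0e-05). *DDX31* had 6135, 3683 and 3948 reads (−0.61 ± 0.15), and *DHX37*, which removes U3 snoRNA from the pre-ribosome, had 2951, 1791 and 1890 (−0.60 ± 0.15). *DDX51*, which acts on the large subunit, had 360, 239 and 207 reads (−0.61 ± 0.14), and unlike the others its column 2 was the lower. These 4 genes lay below the all-gene median in both columns. At the other end, *DDX47*, a nucleolar helicase for ribosomal RNA processing, had 1164 reads in the control and 982 and 1039 in the dIWS1 columns. Its ratios of −0.22 and −0.03 gave the smallest change of all members, −0.12 ± 0.14, which was not called (limma adjusted p = 0.40). *DDX24* had 2444, 1976 and 2078 reads (−0.19 ± 0.15) and *DDX49* 447, 363 and 347 (−0.25 ± 0.13), and neither was called. *DDX18*, *DDX27*, *DDX55*, *DDX56* and *DHX33*, further nucleolar helicases, were called lower at −0.43 to −0.32. *DDX21* and *DDX50* were not analysed here.

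Of 9 members listed for mRNA export, translation or decay, 2 were called lower (22.2%, beside 64.5% of all genes), and the median log2 fold change was −0.26, beside −0.43 for all genes. *DDX39A*, which was called lower and also takes part in export, is counted with splicing and not here. The second called, besides *DHX34*, was *DDX6*, which represses translation and promotes decapping, with 7400 reads in the control and 5359 and 5883 in the dIWS1 columns. Its change of −0.32 ± 0.15 (SE) lay at the edge of the call (limma adjusted p = 0.0495). The remaining 7 lay between −0.28 and −0.16. Of these, *DDX3X*, *DDX19A*, *DDX19B* and *DHX29* were also called lower with the control entered as 2 libraries. That setting called more of all genes lower too, so the count called in this role depends on the setting. *DDX3X*, a helicase of translation initiation, had 3190, 2573 and 2595 reads (−0.22 ± 0.15). *DHX29*, which helps the small ribosomal subunit scan structured leaders, had 2565, 2026 and 2100 reads (−0.23 ± 0.15). *DHX36*, which unwinds G-quadruplexes, had 4896, 4074 and 4243 reads and, at −0.16 ± 0.15, the smallest change of the DHX genes. In each of these 3 genes the dIWS1 columns lay below the control, by less than the median gene did. *DHX9* had 30459, 22498 and 25018 reads (−0.28 ± 0.14) and *DDX1*, a component of the tRNA ligase complex, 5581, 4447 and 4627 (−0.22 ± 0.15). With *DHX34* set aside, the other 8 members of the role lay above the all-gene median in both columns. None of them was called relative to the median gene (limma adjusted p between 0.28 and 0.71), a test that kept the SE from before recentring. With the columns scaled by total reads, *DHX36*, *DDX1*, *DDX3X* and *DHX29* were called higher (limma adjusted p from 0.014 to 0.041), beside 14.6% of all genes. The others were not called under that scaling (limma adjusted p from 0.064 to 0.20). The role lists were drawn up with earlier results of these data known and their difference was not tested.

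**Figure D3:**
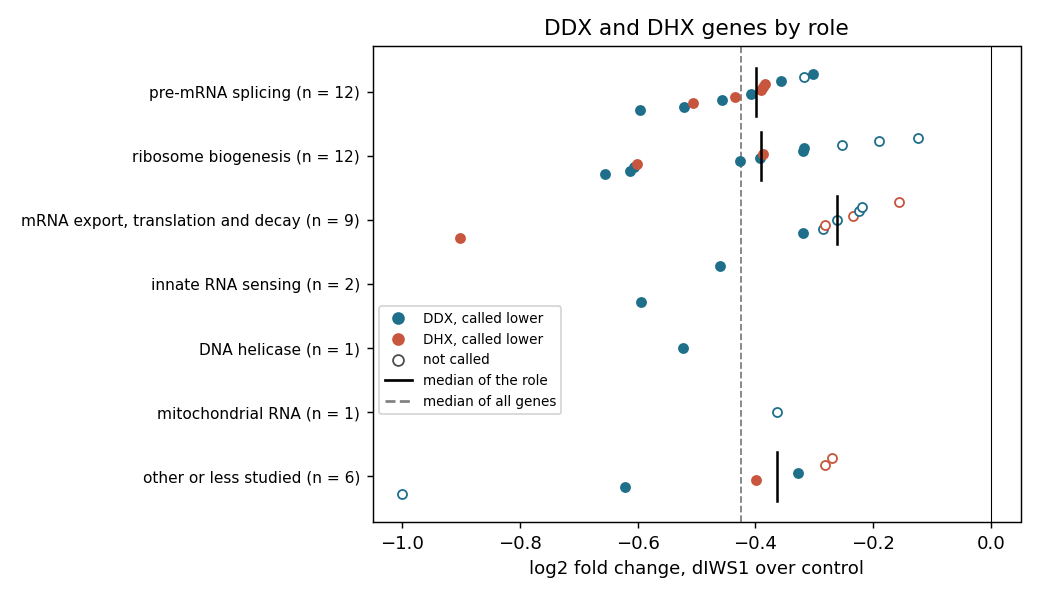
Log2 fold change (dIWS1 over control) of each member by role, coloured by family and open where not called; black lines are medians of roles with more than 2 members and the dashed line is the median of all genes at −0.43. Of the export, translation and decay helicases, 8 of 9 lie to the right of the dashed line, and *DHX34* lies far to its left.

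*DDX19A* and *DDX19B*, paralogs for mRNA export at the nuclear pore, changed by similar amounts. *DDX19B* (chromosome 16, 70289767 to 70335305, plus strand) had 1139 reads in the control and 851 and 919 in the dIWS1 columns. *DDX19A* (70346903 to 70373383, plus strand) had 2230, 1739 and 1782. Their log2 fold changes of −0.28 ± 0.13 and −0.26 ± 0.15 (SE) differ by less than either error, and neither was called (limma adjusted p = 0.052 and 0.099). The authors counted unique alignments, so reads are assigned only where the copies differ and their split is uncertain. The same holds for *DDX11* and *DDX12P*, a transcribed pseudogene that is its near copy. *DDX11* had 1816, 1183 and 1207 reads (−0.52 ± 0.14) and *DDX12P* 623, 399 and 368 (−0.62 ± 0.13), and both were called lower.

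Of the other members, both genes of innate RNA sensing were called lower. *DDX58* had 425 reads in the control and 296 and 289 in the dIWS1 columns (−0.46 ± 0.13, SE). *DDX60L*, a relative of an interferon-induced antiviral helicase, had 1401, 908 and 849 (−0.59 ± 0.14). *DDX28*, which takes part in assembly of the mitochondrial ribosome, had 127, 102 and 85 reads and was not called (−0.36 ± 0.19). *DDX53* had only 13, 5 and 7 reads, and at −1.0 ± 0.51 its large change came with the largest error of all members and was not called (limma adjusted p = 0.070). Among the less studied members, *DHX32* (1140, 833 and 804 reads, −0.40 ± 0.13) and *DDX59* (−0.33 ± 0.14) were called lower. *DHX57* (1822, 1399 and 1436 reads, −0.28 ± 0.14) and *DHX40* (1030, 772 and 845 reads, −0.27 ± 0.13) were not.

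The dIWS1 columns differed in a common direction. Over the members, column 1 divided by column 2 gave a median log2 ratio of −0.16 (SD over genes 0.12). Over all genes with a mean normalized count of 100 or more the median was −0.12 (SD 0.13). Among the members it ran from −0.55 for *DDX53* and −0.38 for *DHX8* to 0.15 for *DDX28*. Read against the median gene of the same column, 13 members lay below it in both columns, 23 above it in both, and 7 changed sides.

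**Figure D4:**
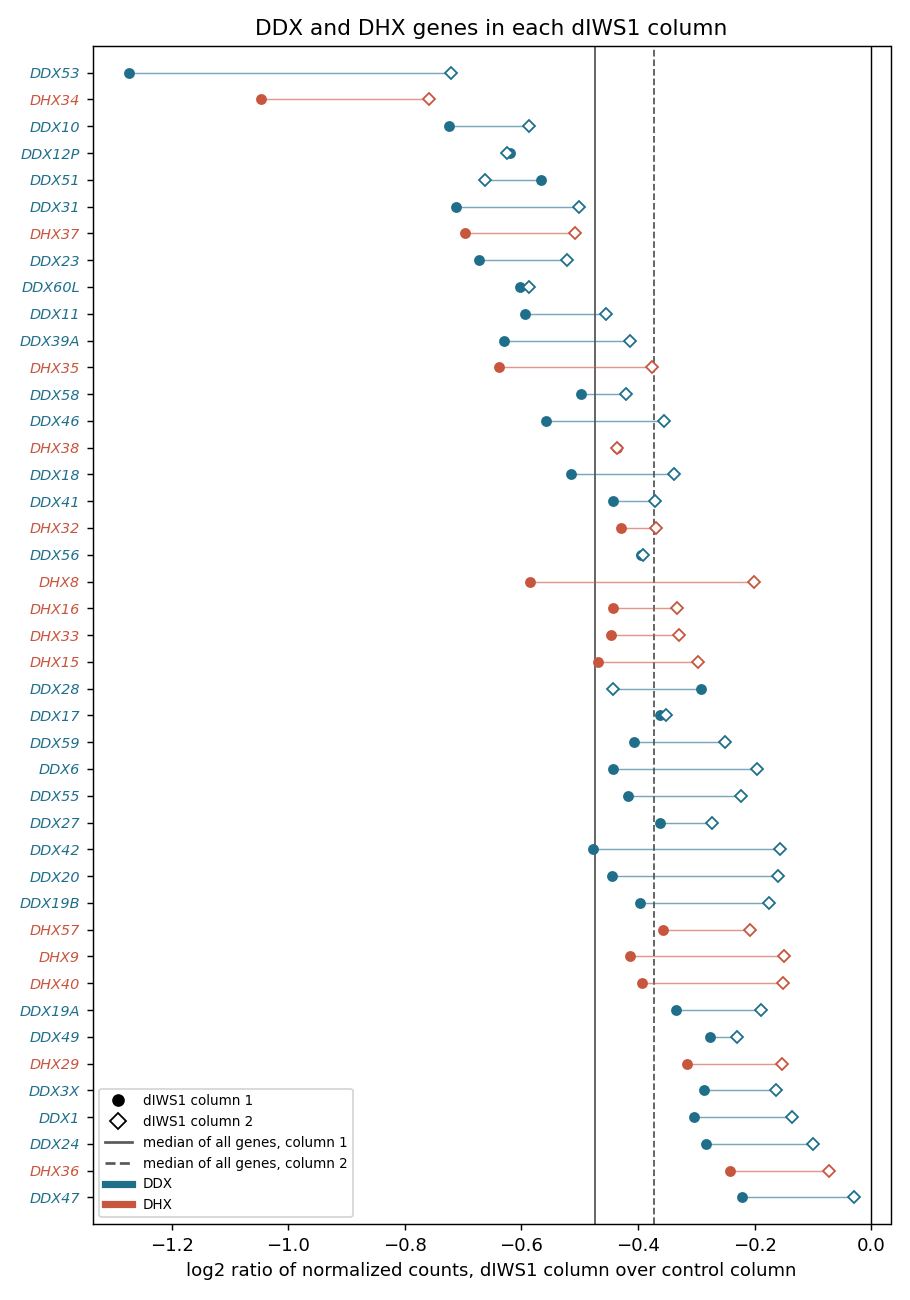
Log2 ratio of normalized counts of each dIWS1 column over the control column for every member, ordered by fold change, with column 1 as filled circles and column 2 as open diamonds; vertical grey lines are the medians of all genes at −0.47 (column 1) and −0.37 (column 2). All 43 members lie below 0 in both columns, and the open diamond lies to the right of the circle for most members.

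Members were also compared with all genes of their length. Of the 7 members over 65 kb, 6 were called lower, beside 78.0% of the 2452 genes tested of this length, with a median log2 fold change of −0.51 (all genes −0.49). Of the 20 members of 25 to 65 kb, 10 were called, beside 57.6%, with a median of −0.32 (all genes −0.35). Of the 10 members of 10 to 25 kb, 9 were called, beside 64.2%, with a median of −0.37 (all genes −0.39). Of the 6 members under 10 kb, all DDX, 3 were called, beside 59.2%, with a median of −0.40 (all genes −0.49). In each class the members' median lay within 0.1 of that of all genes. *DHX34*, at 33.4 kb, lay far below the median of its class. Over all members Spearman's rho of fold change with gene length was −0.01 (n = 43), and with exon number −0.10 (n = 42). DHX genes were longer, with a median of 50.1 kb against 26.5 kb for DDX.

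How the columns are scaled decides the sign of many values. With each column scaled by its total reads in genes, which sets the median of all genes at 0.02, the DDX median was 0.07 and the DHX median 0.05. Then 2 members, *DHX34* and *DDX10*, were called lower, beside 10.7% of all genes. Called higher were 6 members, *DHX36*, *DDX47*, *DDX24*, *DDX1*, *DDX3X* and *DHX29*, beside 14.6% of all genes (limma adjusted p from 0.014 to 0.041). Recentred values were close to these but kept the SE of the main fit, whereas this scaling was fitted anew. For *DHX36* the change was 0.28 here and 0.27 recentred, with limma adjusted p of 0.014 and 0.28. Other settings of the test mattered less. Entered as 2 libraries, the control column gave further calls of lower for *DDX3X*, *DDX19A*, *DDX19B*, *DDX28*, *DDX49*, *DDX53*, *DHX29* and *DHX57*. A limma fit with a trend ended the calls of *DDX6*, *DDX17*, *DDX20*, *DDX27*, *DDX55*, *DDX59* and *DHX15* (adjusted p from 0.069 to 0.11) and called *DDX53* lower (adjusted p = 0.0073), and entering the control as 2 libraries ended those of *DHX8* and *DDX20*. *DHX34* was called lower under every scaling tried, with adjusted p from 7.7e-10 to 0.012.

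The promoters of the lowest and highest member of each family with at least 100 control reads are shown next, since these genes mark the ends of the range. Each is the 100 bases before the first RefSeq start on GRCh38.p14, 5′ to 3′ on the gene's strand, and capitals mark GGGCGG (GC box) and CCAAT on either strand.
DHX34 (lowest DHX, chr19:47349215-47349314, plus strand): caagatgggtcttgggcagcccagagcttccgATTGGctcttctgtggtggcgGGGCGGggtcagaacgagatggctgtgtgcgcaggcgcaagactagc
DDX10 (lowest DDX, chr11:108664969-108665068, plus strand): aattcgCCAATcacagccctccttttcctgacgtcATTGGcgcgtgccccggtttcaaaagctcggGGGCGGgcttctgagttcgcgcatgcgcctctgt
DHX36 (highest DHX, chr3:154324488-154324587, minus strand): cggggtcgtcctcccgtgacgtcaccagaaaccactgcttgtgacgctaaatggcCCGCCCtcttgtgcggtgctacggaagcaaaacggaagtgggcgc
DDX47 (highest DDX, chr12:12813246-12813345, plus strand): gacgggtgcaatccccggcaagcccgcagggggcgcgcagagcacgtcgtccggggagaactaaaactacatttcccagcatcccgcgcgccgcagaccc

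*DHX34* and *DDX10* hold both motifs, *DHX36* only the GC box and *DDX47* neither. Over the 39 members with a promoter entry, GGGCGG was found in 35.9%, beside 31.3% of all 27305 promoters, and CCAAT in 33.3%, beside 18.7%. CCAAT was in 30.8% of 26 DDX and 38.5% of 13 DHX promoters, and GGGCGG in 30.8% and 46.2%. The letters TATAA were in 0 of 39 member promoters, beside 9.52% of all. The members' promoters had a median GC content of 65%, beside 60% for all. The set of all promoters was not limited to the genes tested here. Whether these differences hold beside other genes tested was not examined. In the promoters shown the marked matches share no bases, and matches are a description of these windows.

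Genes that work with or beside these helicases were looked up too. Of 20 related helicases with other names, 14 are in the table, 9 were called lower and 0 higher (64.3% lower, beside 64.5% of all genes), and their median log2 fold change was −0.44. *ZNFX1*, a sensor of viral RNA, was higher relative to the median gene (1697 reads in the control, 1607 and 1615 in the dIWS1 columns, 0.43 on the log2 scale, limma adjusted p = 0.037). Of 34 cofactors, such as G-patch proteins that switch on DEAH box ATPases, 26 are in the table, 19 were called lower (73.1%) and 0 higher, with a median of −0.40. Relative to the median gene, *MAGOHB*, a component of the exon junction complex, was lower (580, 315 and 273 reads, −0.48, limma adjusted p = 0.0088), and *GPATCH11* was higher (465, 468 and 446 reads, 0.48, limma adjusted p = 0.0066). The cofactors *MAGOH* (0.33) and *RBM8A* (0.21) lay above the median gene and were not called relative to it. *IWS1* itself, whose protein and not whose gene dTAG7 removes, had 3684, 2334 and 2427 reads (−0.55 ± 0.15, SE).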

How the data were processed

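TT-seq libraries of K562 cells with a dTAG on IWS1 (2 control, 2 dIWS1 by their labels) were deposited as 1 table. The authors aligned read pairs with STAR 2.6.0 to GRCh38 plus spike-in sequences, counted unique pairs per RefSeq gene by strand, removed overlapping genes and genes of low reads per kb, and fitted DESeq2 with spike-in size factors. The deposited mean is a signal, that is, size-factor-normalized counts averaged over the library columns. The deposited log2 fold change, with the error and p-values beside it, holds the authors' own comparison. It was used only to tell which column is the control and to choose among several solutions for 9 genes, none a member, and is not printed.

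Each mean was split into whole reads times the 3 step sizes found among low means. Of 10136 genes above 0, 10126 had 1 solution from the mean alone and 1 had none. Of 600 means shifted at random, 1 could be split. The columns had size factors of 1.01 (control), 0.993 and 0.919, and the design had foreseen this recovery. Reads were fitted with limma 3.58.1 voom in R 4.3.3, two-sided, with 1 control and 2 dIWS1 columns. Each gene has 1 residual degree of freedom, and the fit gave all genes a shared spread. This pooling set the degrees of freedom of the test at a median of 10135, although all genes come from the same 3 columns. Single-column ratios used a pseudocount of 0.5. Both scripts were tested on simulated data. Other software was Python 3.11.15, numpy 2.4.6, pandas 2.3.3, scipy 1.17.1, numba 0.67.0 and matplotlib 3.10.9.

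The members, role lists and other lists were chosen with earlier results of these data known. Named by rule were the 5 lowest and 5 highest of each family with at least 100 control reads, members called relative to the median gene, paralogs, spliceosomal DEAH ATPases, *DHX9*, *DHX29*, *DHX36* and *DHX37* (28 genes). The 15 others were named by role after their values were seen. Gene spans, promoters and names came from RefSeq on GRCh38.p14, and 4 members have no promoter entry. Alternatives were other scalings, minimum means, thresholds, pseudocounts, a limma trend fit, the control entered as 2 libraries and each dIWS1 column alone.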

Additional observations from a re-analysis of the deposited data

How the results depend on the processing

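The count of 28 members called lower became 1 after recentring on the median gene and 2 after scaling by total reads, under which 6 were called higher and not 0. Other alternatives gave 20 to 37 members lower and 0 higher, 22 with the trend fit (21 of them also in the 28), 34 with the control as 2 libraries (26 also in the 28) and, chosen after seeing the data, 27 without *DDX12P*. The 1 member called relative to the median gene was also 1 with a precision-weighted centre and at 0.1. The DDX median of −0.36 became 0.061 recentred, 0.074 by total reads and −0.44 as a ratio of summed levels, and −0.44 to −0.35 with single columns. The DHX median of −0.39 became 0.038 recentred and 0.053 by total reads. The difference of medians (−0.02) was 0.0042 to 0.039 with single columns and 0.11 from summed levels.

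Recentring by definition moved genes that fell less than the median gene above 0. Of 28 named genes 18 did so: *DDX1* (0.21), *DDX17* (0.069), *DDX19A* (0.16), *DDX19B* (0.14), *DDX24* (0.23), *DDX3X* (0.20), *DDX47* (0.30), *DDX49* (0.17), *DDX6* (0.11), *DHX15* (0.042), *DHX16* (0.037), *DHX29* (0.19), *DHX32* (0.027), *DHX36* (0.27), *DHX40* (0.15), *DHX57* (0.14), *DHX8* (0.034) and *DHX9* (0.14).

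No paired analysis was possible because only 1 control column was recovered, and the columns carry no replicate numbers. The control spread is not measured, and p-values rest on the spread between 2 dIWS1 columns, shared over all genes. How closely the columns of a single gene lie together therefore does not set its SE. *DDX53* and *DDX28* are limited by their few reads.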
